A study of Mus musculus with 4 samples.

Results

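The proteasome family of the mouse genome was followed here in haematopoietic stem cells (HSC), the bone marrow cells from which all blood lineages derive. Its members were every gene symbol made of Psma, Psmb, Psmc, Psmd, Psme, Psmf or Psmg and a number, which gave 49 of the 24411 gene symbols in the count tables. Single HSC sorted from bone marrow of Mat KO mice and of wild-type (WT) mice were each profiled in 2 libraries, with 92 kept Mat KO cells and 96 kept WT cells. The title of the series places the mutation among the small nucleolar RNAs of the imprinted Dlk1-Gtl2 locus. What was deleted from the maternal copy, in which cells, and the age and strain of the animals are not in the labels, and no agent is named for any group. Whether each library is a separate animal is not stated either, so a p-value here reflects the spread among 4 libraries, part of which may be technical. Every library held cells with Xist transcripts and cells with Y-linked but no Xist transcripts. A library may thus pool cells of male and female animals, which was not tested.

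The proteasome is the protease that degrades proteins tagged with ubiquitin. Its core is a barrel of stacked rings: alpha subunits form the outer rings and gate the entrance, and beta subunits form the inner rings, where Psmb5, Psmb6 and Psmb7 carry the chymotrypsin-like, caspase-like and trypsin-like cutting sites. A regulatory particle sits on the barrel, with a base of ATPases that unfold substrates and pull them in, and a lid that removes ubiquitin. In blood cells and after interferon, Psmb8, Psmb9 and Psmb10 take the places of Psmb5, Psmb6 and Psmb7, and the PA28 activator of Psme1 and Psme2 can bind the barrel in place of the regulatory particle. This immunoproteasome cuts peptides suited to display on MHC class I molecules.

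The family divided into 17 standard core subunits and their immune forms (7 alpha, 4 beta subunits without a cutting site, 3 constitutive catalytic and 3 immune catalytic), 9 base subunits (6 ATPases and 3 others), 8 lid subunits, 7 assembly chaperones, the PA28 genes Psme1 and Psme2, the near copy Psme2b, 3 other regulators, and 2 core genes known from other tissues, Psma8 of the testis and Psmb11 of the thymus. Psma8 had 0 UMIs in Mat KO replicate 1 and 14 in Mat KO replicate 2, against 45 in WT replicate 1 and 7 in WT replicate 2, and values are given in this replicate order from here on. Psmb11 had 1 and 0 UMIs in Mat KO cells against 1 and 0 UMIs in WT. Both were at the edge of detection, where a count of 0 allows up to 3 UMIs by counting error alone. The other 47 members had UMIs in every library.

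The catalytic pairs lie in different parts of the genome. Psmb8 (chr17:34197721-34201454, plus strand) and Psmb9 (chr17:34181987-34187764, minus strand) are neighbours in the major histocompatibility complex, while Psmb10 (chr8:105935735-105938444, minus strand), Psmb5 (chr14:54614119-54618022, minus strand), Psmb6 (chr11:70525367-70527858, plus strand) and Psmb7 (chr2:38588036-38644087, minus strand) lie outside it; all positions are those of GENCODE protein-coding genes in GRCm38, the build also named mm10. The 250 bases before the RefSeq transcription start (GRCm38.p6) of 5 of these genes are shown because the immune genes and their constitutive counterparts answer to different signals. They are written 5′ to 3′ on the strand of the gene, and capitals mark a match on either strand to the gamma-activated site TTCNNNGAA, bound by STAT factors, to the antioxidant response element core TGACNNNGC, or to the interferon-stimulated element (GAAA, any 2 bases, then GAAA). The windows are chr17:34197945-34198194 for Psmb8, chr17:34187331-34187580 for Psmb9, chr8:105938393-105938642 for Psmb10, chr14:54617996-54618245 for Psmb5 and chr11:70525107-70525356 for Psmb6. RefSeq places the starts of Psmb8, Psmb9, Psmb10 and Psmb5 inside the longer GENCODE gene spans, so the windows of these genes overlap the spans.
Psmb8: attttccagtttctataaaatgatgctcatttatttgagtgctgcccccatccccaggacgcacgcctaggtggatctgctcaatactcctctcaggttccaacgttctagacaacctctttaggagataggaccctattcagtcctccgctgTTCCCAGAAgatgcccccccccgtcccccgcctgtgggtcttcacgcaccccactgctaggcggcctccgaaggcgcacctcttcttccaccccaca
Psmb9: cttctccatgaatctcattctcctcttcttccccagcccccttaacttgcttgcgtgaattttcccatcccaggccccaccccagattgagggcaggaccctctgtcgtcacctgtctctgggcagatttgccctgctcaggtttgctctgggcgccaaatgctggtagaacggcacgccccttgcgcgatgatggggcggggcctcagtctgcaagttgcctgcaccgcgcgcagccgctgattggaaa
Psmb10: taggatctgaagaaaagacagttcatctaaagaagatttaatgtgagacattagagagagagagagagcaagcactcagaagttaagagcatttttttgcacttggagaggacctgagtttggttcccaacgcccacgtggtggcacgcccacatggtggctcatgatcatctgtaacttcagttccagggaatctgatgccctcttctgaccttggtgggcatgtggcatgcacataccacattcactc
Psmb5: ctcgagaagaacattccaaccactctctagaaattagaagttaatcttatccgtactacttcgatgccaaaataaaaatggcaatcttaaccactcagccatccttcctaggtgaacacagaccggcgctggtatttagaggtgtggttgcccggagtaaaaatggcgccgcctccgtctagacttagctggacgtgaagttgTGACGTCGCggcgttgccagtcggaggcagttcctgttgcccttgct
Psmb6: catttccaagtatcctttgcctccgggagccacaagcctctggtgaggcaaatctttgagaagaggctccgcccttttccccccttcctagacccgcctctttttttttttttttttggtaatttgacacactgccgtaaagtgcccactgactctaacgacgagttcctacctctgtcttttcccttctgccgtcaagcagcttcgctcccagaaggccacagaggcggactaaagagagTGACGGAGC

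Psmb8 held 1 gamma-activated site, beginning at position -97 from the start, and Psmb5 and Psmb6 held 1 antioxidant element core each, at positions -47 and -9. The windows of Psmb9 and Psmb10 held none of these motifs. A window was found for 41 of the 49 members and not for Psmb7. The gamma-activated site was present in 2 of the 41 (4.88%), Psmb8 and the core chaperone Psmg1, against 8.13% of 27025 genes with a window. The antioxidant core was present in 5 of 41 (12.2%, against 11.5% of all genes), in Psmb5, Psmb6, Psmc6, Psmd12 and Psmd9. The interferon-stimulated element was present in 3 of 41 (7.32%, against 3.46%), in Psmb3, Psmd4 and Psmd9, and in no immune member with a window. The ETS core CCGGAAG was in 12 of 41 (29.3%, against 7.83%), and the palindrome of GCGCA, any 1 base and GCGC that is bound by nuclear respiratory factor 1 was in 6 of 41 (14.6%, against 4.23%), in Psma2, Psma3, Psma4, Psmc4, Psmc5 and Psmd14. No window with an ETS core or this palindrome belonged to an immune member. A match is only a match of letters in this window, and motifs with variable letters may overlap one another.

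All 16 HSC markers examined (among them Procr, Slamf1, Hlf, Mecom and Kit) were detected in every library. The kept cells held 1768647 to 3253608 UMIs per library, and Mat KO libraries were the shallower, with medians of 33612.5 and 27845 UMIs per cell in Mat KO against 53092.5 and 51437 in WT. Meg3, the first RNA of the locus named in the title, had 35 and 58 UMIs in Mat KO cells against 168 and 153 in WT, with a log2 fold change of -0.93 and an adjusted p of 0.729 in edgeR's test. Of the same locus, Rian had 0 and 25 UMIs in Mat KO cells against 0 and 0 in WT. Mirg had 0 and 0 UMIs in Mat KO cells against 47 and 0 in WT. Some cells carried markers of other lineages: granulocyte and monocyte markers took 3.70% and 0.623% of all UMIs in the Mat KO libraries, against 0.732% and 0.370% in the WT libraries. S phase genes took 0.139% and 0.115% in Mat KO against 0.175% and 0.255% in WT, and G2/M genes took 0.710% and 0.466% in Mat KO against 0.489% and 0.451% in WT. The part of depth, of these other cells and of the cell cycle in the differences below was not tested, beyond the values given with other cells left out and at equal depth. Cells below stated limits for every other lineage are called lineage-low, and numbered 26 and 41 in Mat KO against 41 and 39 in WT.

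The summed level of the family was lower in both Mat KO libraries than in both WT libraries, in a design too small for an exact test to pass. Its members held 12040 and 10073 UMIs in the Mat KO libraries, against 21435 and 22988 UMIs in the WT libraries. Scaled to CPM (a gene's UMIs over all UMIs of the library, times 1e6), this came to 6336 and 5695 CPM in Mat KO cells against 6734 and 7065 CPM in WT cells, or 6016 ± 453 and 6900 ± 235 CPM (SD, n = 2 each). The log2 difference of the sums was -0.20, and the groups did not overlap (exact permutation test, two-sided, p = 0.333, below which a design of 2 against 2 cannot go). In sums over cells, fewer expressing cells and less RNA per cell cannot be told apart.

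The same order held cell by cell. In the median cell the family took 0.511% and 0.484% of UMIs in the Mat KO libraries, against 0.618% and 0.622% in the WT libraries (exact permutation p = 0.333). In lineage-low cells the medians were 0.506% and 0.479% in Mat KO against 0.587% and 0.621% in WT. With every cell thinned to 8900 UMIs they were 0.507% and 0.483% in Mat KO against 0.609% and 0.612% in WT. Single cells ranged widely, from 0.0602% to 1.15% in Mat KO and from 0.236% to 1.21% in WT. A median cell held UMIs of 26 and 25 of the 49 members in Mat KO against 29.5 and 33 in WT, and of 19.3 and 18.4 in Mat KO against 21.4 and 22.9 in WT at equal depth. At equal depth, 6 and 7 Mat KO cells and 2 and 4 WT cells were too shallow to be used.

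**Figure D1:**
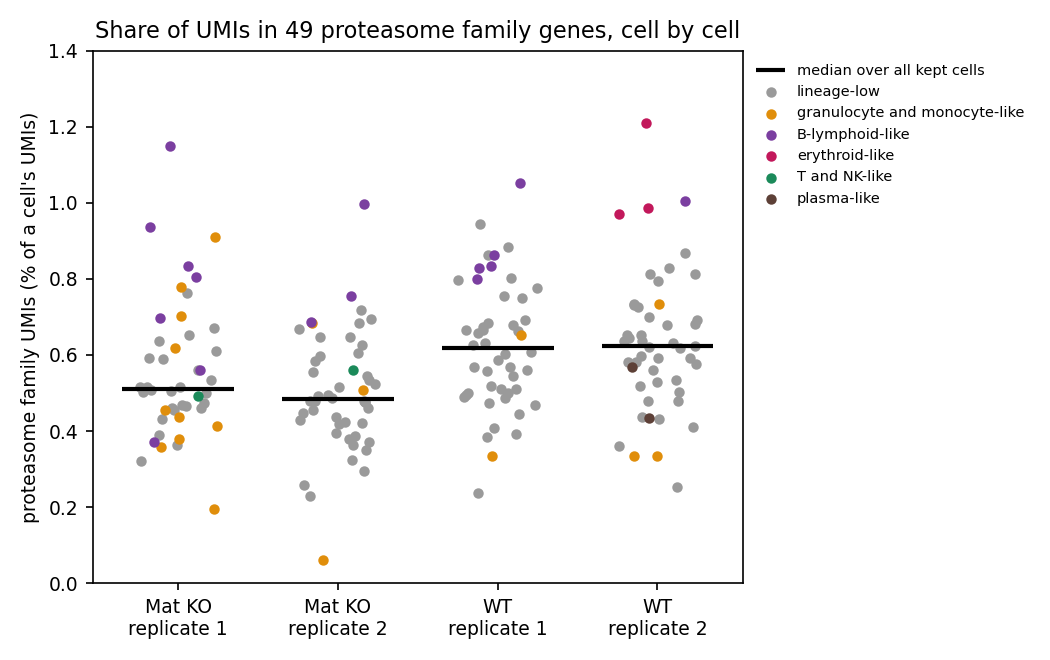
Share of a cell's UMIs in the 49 proteasome family genes (vertical axis, percent) for each kept cell in the 4 libraries; points are cells coloured by marker class and bars are library medians. The medians of the Mat KO libraries, 0.511% and 0.484%, lie below those of the WT libraries, 0.618% and 0.622%, while the cells of the libraries overlap.

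Gene by gene, no member passed edgeR's quasi-likelihood test on the 4 library sums (adjusted p under 0.05). Of the 49 members 48 had enough UMIs to be tested and 0 were called, where 0.075% of all 10663 genes tested were called. DESeq2 called 0 members too, where it called 120 of all 10663 genes. In edgeR's test 2 members had an unadjusted p under 0.05, both lower in Mat KO. Over all genes 3.32% were below that p and lower and 4.5% were below it and higher. The log2 fold change was below 0 for 37 of the 48 members, against 50.6% of all genes, with a median of -0.13 over the members and -0.01 over all genes. In 13 members both Mat KO libraries lay below both WT libraries, and in 1 they lay above; 21.3% and 17.8% of all genes did so in those directions. The count of 37 is thus a description of many small differences that share libraries, and no single one passed. It also depended on the libraries: without Mat KO replicate 2 the median was -0.087 over the members and -0.099 over all genes.

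In lineage-low cells 39 of 48 members had a log2 fold change below 0, where 51.3% of all genes did, and the median was -0.31. Again 0 members were called, where 0.0403% of all genes were, and 2 members, both lower, had an unadjusted p under 0.05, where 3.82% of all genes were lower and 3.62% higher at that p. In 21 members the lineage-low cells of Mat KO lay below those of WT without overlap and in 2 they lay above, where 22.7% and 15.5% of all genes did so. With all kept cells thinned to equal depth 34 of 43 tested members were lower, where 50.7% of all genes were. The direction was not the same in every group of cells. Among cells with Xist UMIs 37 of 47 members were lower in Mat KO, where 50.6% of all genes were, and the sums were 5962 and 5256 CPM in Mat KO cells against 6819 and 7088 CPM in WT cells. Among cells with Y-linked and no Xist UMIs, 19 and 10 in Mat KO against 15 and 11 in WT, 19 of 46 members were lower, where 52.0% of all genes were, and the sums were 6841 and 7046 CPM in Mat KO cells against 6550 and 7030 CPM in WT cells. In that last group the median share per cell was 0.503% and 0.509% in Mat KO, against 0.609% and 0.644% in WT. Between 12 and 23 cells per library held UMIs of both kinds, so these groups are not a clean division by sex, and the difference between them was not tested.

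**Figure D2:**
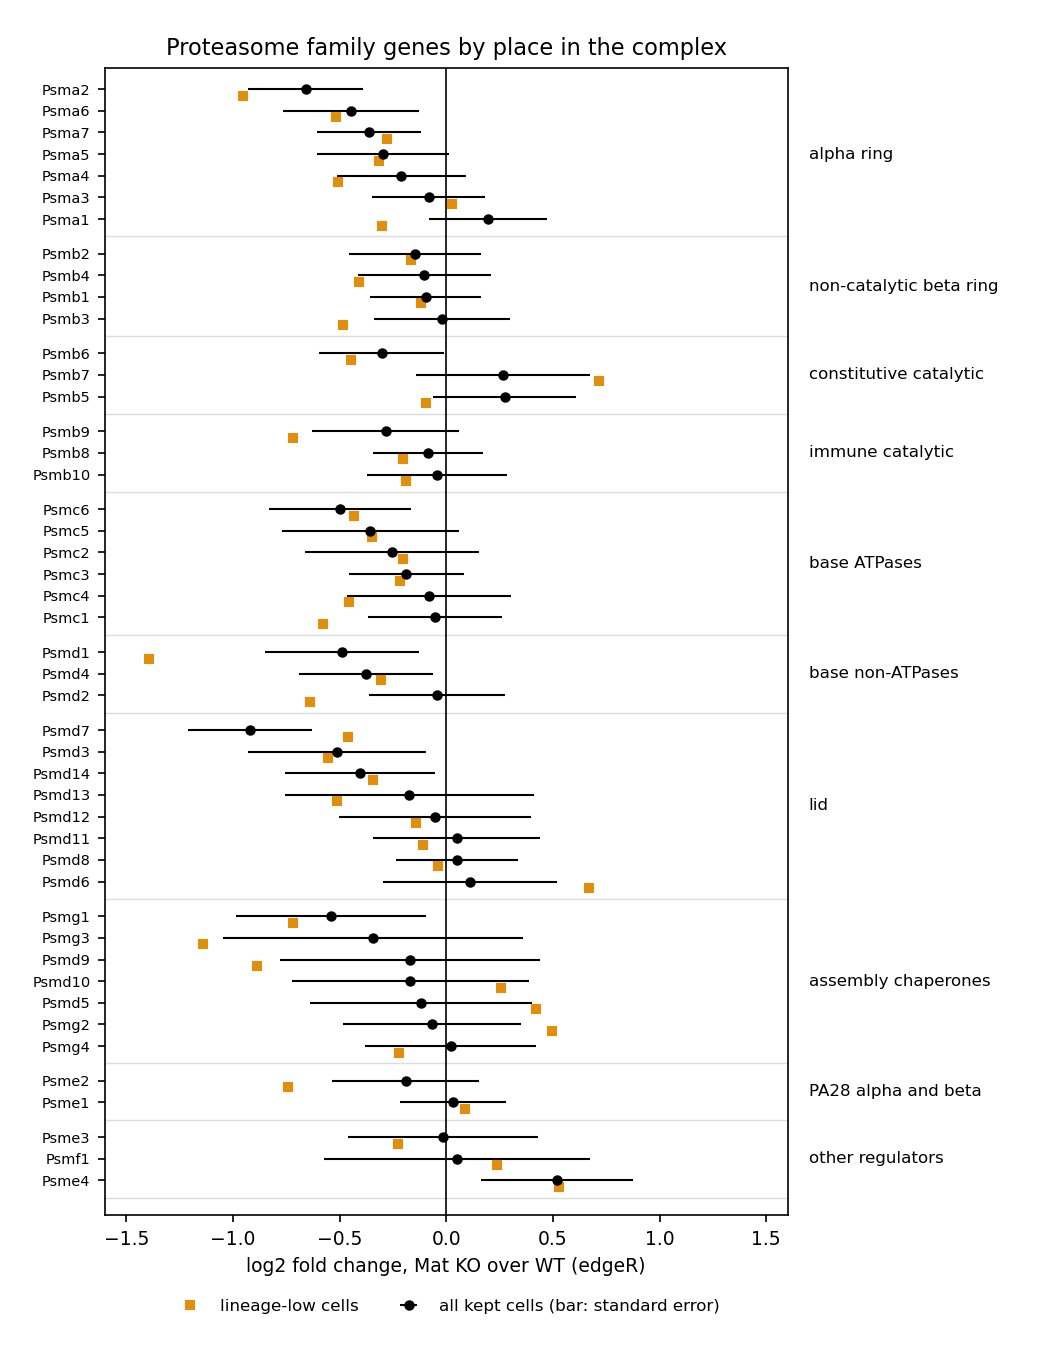
Log2 fold change, Mat KO over WT, of 46 proteasome family genes grouped by their place in the complex; black points with bars are edgeR estimates and standard errors over all kept cells, orange squares the estimates in lineage-low cells. All 9 base genes lie left of 0, and Psmd7 lies farthest left among the genes drawn over all kept cells. Psma8, Psmb11 and Psme2b, the members of lowest mean CPM, are not drawn.

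Most of the alpha ring had lower estimates in Mat KO. Of its 7 genes 6 had a log2 fold change below 0, 4 of them without overlap (3 in lineage-low cells), where 21.3% of all genes lay below without overlap, and its summed level was 1450 and 1309 CPM in Mat KO cells against 1697 and 1724 CPM in WT cells (exact permutation p = 0.333). Psma2 had 160.0 and 162 CPM in Mat KO cells against 244 and 276 CPM in WT cells. Both Mat KO libraries lay well below both WT libraries, with a log2 fold change of -0.66 (SE 0.27) and an adjusted p of 0.592 in edgeR's test. At equal depth 53.3% and 55.5% of Mat KO cells held a Psma2 UMI, against 70.1% and 75.3% of WT cells. In lineage-low cells Psma2 had 110 and 109 CPM in Mat KO cells against 209 and 232 CPM in WT cells, a log2 fold change of -0.95 with an adjusted p of 0.490 in edgeR's test.

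Psma7, the most abundant alpha subunit here, had 388 and 328 CPM in Mat KO cells against 444 and 497 CPM in WT cells (log2 fold change -0.36, SE 0.24). Psma1 went the other way, with 211 and 183 CPM in Mat KO cells against 168 and 183 CPM in WT cells, where the groups overlap (log2 fold change 0.20, SE 0.28). In lineage-low cells the estimate for Psma1 was -0.30, opposite in sign.

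The 4 beta subunits without a cutting site gave small estimates. All 4 estimates were below 0, between -0.15 and -0.02, and none of the genes separated the libraries by genotype. Psmb2 had 178 and 131 CPM in Mat KO cells against 152 and 197 CPM in WT cells, and Psmb1 had 239 and 262 CPM in Mat KO cells against 294 and 254 CPM in WT cells.

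All 9 base genes had a log2 fold change below 0, with a median of -0.26, and the base summed to 1161 and 898 CPM in Mat KO cells against 1213 and 1283 CPM in WT cells (exact permutation p = 0.333). Psmc6, an ATPase of the base, had 87.4 and 93.3 CPM in Mat KO cells, against 119 and 142 CPM in WT cells (log2 fold change -0.50, SE 0.33, adjusted p = 0.767 in edgeR's test). Psmc5, another of the ATPases, had 80.0 and 48.6 CPM in Mat KO cells against 72.3 and 95.6 CPM in WT cells, with overlap. Psmd1, a large scaffold of the base, had 113 and 67.3 CPM in Mat KO cells against 134 and 124 CPM in WT cells (log2 fold change -0.49, SE 0.36). In lineage-low cells Psmd1 stood further apart, at 27.3 and 61.1 CPM in Mat KO cells against 138 and 107 CPM in WT cells, with a log2 fold change of -1.39 and an adjusted p of 0.527 in edgeR's test. Psmd4, a ubiquitin receptor, had 193 and 122 CPM in Mat KO cells against 230 and 188 CPM in WT cells, with overlap.

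The lid held the member of smallest p. Psmd7, the inactive partner of the deubiquitinase Psmd14, had 126 and 105 CPM in Mat KO cells, against 225 and 221 CPM in WT cells. Its log2 fold change was -0.92 (SE 0.29), with an unadjusted p of 0.00881 and an adjusted p of 0.468 in edgeR's test. The Mat KO libraries lay at about the same level, far below the WT libraries, and no cell held more than 15.2% of a library's Psmd7 UMIs. In lineage-low cells Psmd7 had 183 and 130 CPM in Mat KO cells against 247 and 199 CPM in WT cells, and the estimate was -0.46. At equal depth 47.2% and 40.4% of Mat KO cells held a Psmd7 UMI against 57.7% and 73.1% of WT cells.

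Of the 8 lid estimates 5 were below 0. Psmd3 had 52.6 and 48.1 CPM in Mat KO cells against 63.8 and 83.0 CPM in WT cells (log2 fold change -0.51, SE 0.42). Psmd6 had 89.5 and 154 CPM in Mat KO cells against 80.1 and 151 CPM in WT cells, so replicates differed more than genotypes. Psmd8 had 206 and 160.0 CPM in Mat KO cells against 177 and 184 CPM in WT cells, with overlap.

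Assembly chaperones guide the rings and the base into place and leave the finished particle. Of 7 such genes 6 had an estimate below 0, and their sum was 415 and 300.2 CPM in Mat KO cells against 451 and 361 CPM in WT cells. Psmg1, 1 partner of a core chaperone pair, had 51.6 and 36.2 CPM in Mat KO cells against 68.5 and 61.8 CPM in WT cells, without overlap (log2 fold change -0.54, SE 0.44, adjusted p = 0.824 in edgeR's test). Psmg3 had 24.2 and 15.3 CPM in Mat KO cells against 19.8 and 31.4 CPM in WT cells. Psmg4 had 141 and 75.2 CPM in Mat KO cells against 134 and 83.3 CPM in WT cells, a spread between replicates with no difference between genotypes beyond it.

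The constitutive catalytic genes did not move together. Psmb5 had 127 and 111 CPM in Mat KO cells, against 89.2 and 112 CPM in WT cells (log2 fold change 0.27, SE 0.34). Psmb6 had 174 and 136 CPM in Mat KO cells, against 183 and 207 CPM in WT cells (log2 fold change -0.30, SE 0.29), and was the gene of the 3 whose libraries did not overlap. Psmb7 had 91.0 and 133 CPM in Mat KO cells, against 65.0 and 126 CPM in WT cells (log2 fold change 0.26, SE 0.41). Their sum was 392 and 380.0 CPM in Mat KO cells against 338 and 444 CPM in WT cells, with Mat KO inside the range of WT.

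The immune catalytic genes all had estimates slightly below 0. Psmb8 had 329 and 260 CPM in Mat KO cells, against 317 and 321 CPM in WT cells (log2 fold change -0.09, SE 0.26). Psmb9 had 81.0 and 94.4 CPM in Mat KO cells, against 110 and 109 CPM in WT cells (log2 fold change -0.28, SE 0.35), without overlap. In lineage-low cells Psmb9 had 61.0 and 58.7 CPM in Mat KO cells against 109 and 96.0 CPM in WT cells. Psmb10 had 145 and 127 CPM in Mat KO cells, against 172 and 114 CPM in WT cells (log2 fold change -0.05, SE 0.33). The adjusted p of the 6 catalytic genes lay between 0.857 and 0.989 in edgeR's test.

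**Figure D3:**
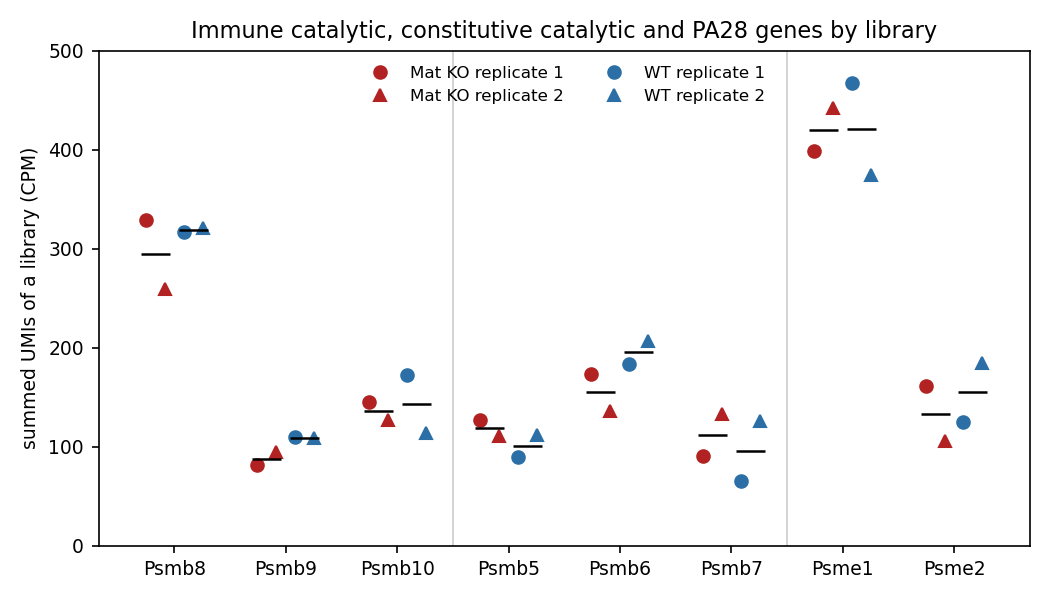
Levels of the 3 immune catalytic, 3 constitutive catalytic and 2 PA28 genes in the 4 libraries (vertical axis, CPM of summed UMIs); points are libraries and short bars are means of 2. Psmb9 and Psmb6 are the genes whose Mat KO points both lie below both WT points.

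Summed over all kept cells, both genotypes carried more immune than constitutive catalytic UMIs. The immune genes made up 58.6% and 55.9% of catalytic UMIs in Mat KO against 63.9% and 55.0% in WT, and the log2 ratio of the sums differed by -0.14 between genotypes (exact permutation p = 1.0), within the spread of the WT libraries. The sign rested on WT replicate 1: the difference was 0.13 without it and -0.41 without WT replicate 2. In lineage-low cells the immune share was 66.1% and 52.2% in Mat KO against 67.4% and 60.3% in WT. UMIs here count tagged ends of transcripts and have no length term, but capture can differ between genes. The pairs differed in balance: Psmb8 exceeded Psmb5 by 2.59 and 2.34 times in Mat KO and by 3.55 and 2.87 times in WT. Psmb9 stood at 0.467 and 0.693 of Psmb6 in Mat KO and at 0.598 and 0.526 in WT. Psmb10 stood at 1.59 and 0.953 of Psmb7 in Mat KO and at 2.65 and 0.907 in WT. Over all kept cells the Psmb8 to Psmb5 pair was the one whose libraries did not overlap. Its log2 difference was -0.38 (exact permutation p = 0.333), and the other pairs gave an exact permutation p = 1.0. In lineage-low cells the libraries of this pair overlapped, with the highest ratio in Mat KO replicate 1 and the lowest in Mat KO replicate 2. Psmb8 there had 358 and 179 CPM in Mat KO cells against 307 and 330 CPM in WT cells. Psmb5 there had 78.9 and 72.2 CPM in Mat KO cells against 73.0 and 94.3 CPM in WT cells.

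Most cells carried both forms. Among cells with any catalytic UMI, 5 of 43 and 4 of 47 Mat KO cells held immune UMIs alone, against 3 of 48 and 2 of 48 WT cells. Constitutive UMIs alone were found in 0 and 4 Mat KO cells against 2 and 0 WT cells. Across the cells of a library, the share of UMIs in the immune catalytic genes had a Spearman rho of 0.005 and 0.139 with the PA28 share in Mat KO cells, and of -0.28 and 0.25 in WT. With the share of interferon-induced genes rho was -0.07 and 0.22 in Mat KO cells, and -0.01 and -0.06 in WT. These are descriptions over 44 to 48 cells that share a library and differ in depth.

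The activators and inhibitors of the core showed no common direction. Psme1, the most abundant of them, had 398 and 442 CPM in Mat KO cells against 468 and 374 CPM in WT cells (log2 fold change 0.03, SE 0.25). Psme2 had 161 and 106 CPM in Mat KO cells against 125 and 185 CPM in WT cells (log2 fold change -0.19, SE 0.34). Its near copy Psme2b held 38 and 5 UMIs in Mat KO cells, against 43 and 22 in WT cells. No source used here says to which copy shared reads went, so the values of both genes are uncertain. Psme4, which encodes the nuclear activator PA200, was the one member higher in Mat KO without overlap over all kept cells, at 96.3 and 131 CPM in Mat KO cells against 81.4 and 80.5 CPM in WT cells. Its log2 fold change was 0.52 (SE 0.36) and its adjusted p 0.773 in edgeR's test. In lineage-low cells Psme4 overlapped, at 95.7 and 159 CPM for Mat KO against 87.4 and 96.9 CPM for WT (log2 fold change 0.53), and the members higher without overlap there were Psmd6 and Psmg2. At equal depth 42.0% and 55.1% of Mat KO cells held a Psme4 UMI against 28.5% and 29.3% of WT cells. Psme3, the nuclear PA28 gamma, had 68.9 and 49.8 CPM in Mat KO cells against 47.1 and 75.3 CPM in WT cells, and Psmf1, an inhibitor, had 68.4 and 18.1 CPM in Mat KO cells against 51.8 and 33.2 CPM in WT cells.

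B-lymphoid-like cells stood further from lineage-low cells than the genotypes did from each other. The mean log2 ratio was 0.73, against log2 genotype differences of -0.20 over all kept cells and -0.31 in lineage-low cells. These sizes were not tested against each other. Cells whose B-lymphoid markers passed a limit of 0.2% of UMIs are called B-lymphoid-like. They numbered 7 and 3 in Mat KO against 5 and 1 in WT, so WT replicate 2 gives the value of 1 cell. In them the family took 0.924% and 0.899% of UMIs in Mat KO libraries, against 0.935% and 1.00% in WT, and in lineage-low cells 0.527% and 0.495% in Mat KO against 0.636% and 0.627% in WT. The log2 ratio of B-lymphoid-like over lineage-low cells averaged 0.73 ± 0.14 (SD, n = 4 libraries) and was above 0 in 4 of 4 libraries (exact sign-change permutation test, p = 0.125, below which 4 libraries cannot go). Of the 49 members 15 were higher in B-lymphoid-like cells in 4 of 4 libraries, where 8.95% of all genes tested were. Only 1, Psme4, was lower in 4 of 4, where 24.9% of all genes were. A gene without UMIs in the 1 cell of WT replicate 2 could not be higher in 4 of 4. The shares over all genes thus include sparse genes, and members were not compared with genes of like level. The 15 included 4 alpha subunits (Psma2, Psma5, Psma6 and Psma7), 4 base subunits (Psmc1, Psmc2, Psmc4 and Psmd2), Psmb5, Psmb7 and Psmb9. Psmb5, for example, had 299.9 and 255 CPM in B-lymphoid-like and 78.9 and 72.2 CPM in lineage-low cells of Mat KO, and 185 and 130 CPM in B-lymphoid-like and 73.0 and 94.3 CPM in lineage-low cells of WT.

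The constitutive catalytic sum was higher in B-lymphoid-like than in lineage-low cells in 4 of 4 libraries, by 1.12 ± 0.39 on the log2 scale, and the immune catalytic sum by 0.54 ± 0.63 (SD, n = 4; exact permutation p = 0.125 for each). The immune share of catalytic UMIs was 41.4% and 57.8% in B-lymphoid-like cells of Mat KO and 51.5% and 57.2% in those of WT, against 66.1% and 52.2% in lineage-low cells of Mat KO and 67.4% and 60.3% in those of WT. The ratio of the sums was lower in 3 of 4 libraries, a log2 difference of -0.57 ± 0.80 (SD, n = 4, exact permutation p = 0.375). B-lymphoid-like cells also held more G2/M transcripts, 1.55% and 2.48% of UMIs in those of Mat KO and 1.24% and 1.65% in WT, against 0.188% and 0.149% in lineage-low cells of Mat KO and 0.347% and 0.315% in those of WT. They were deeper as well, with medians of 51235 and 52128 UMIs in Mat KO against 73986 and 223278 in WT. The part of the cell cycle and of depth in the difference was not tested.

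**Figure D4:**
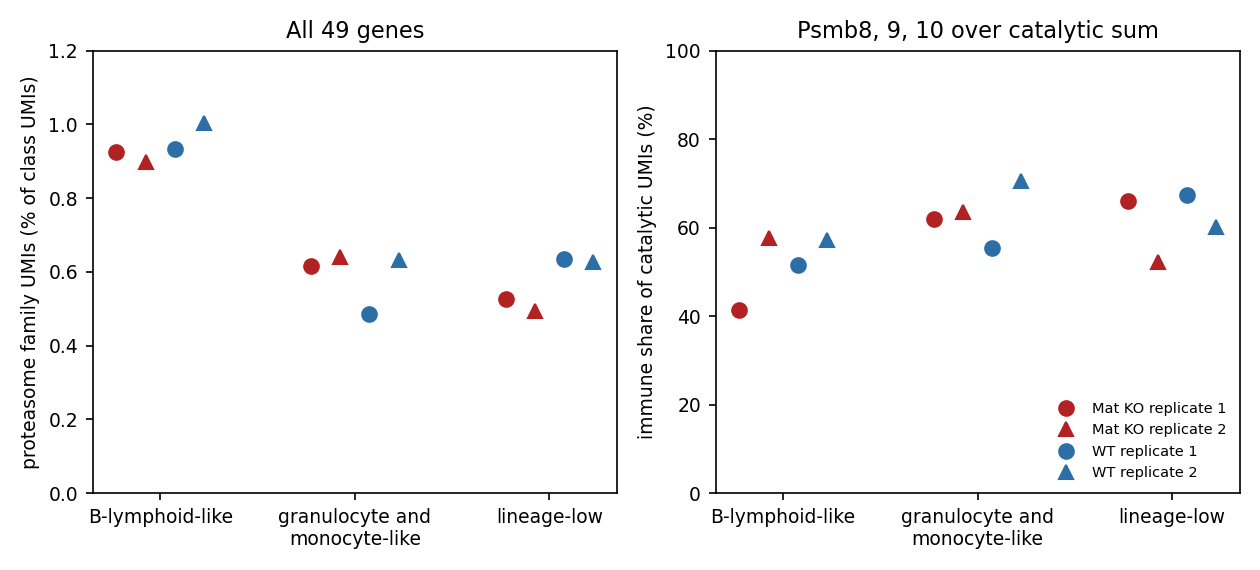
Family share of UMIs (left, percent) and immune share of catalytic UMIs (right, percent) in B-lymphoid-like, granulocyte and monocyte-like and lineage-low cells; points are libraries. On the left all 4 B-lymphoid-like points, 0.899% to 1.00%, lie above all other points, and on the right the classes overlap.

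Granulocyte and monocyte-like cells (10 and 3 in Mat KO, 2 and 3 in WT) gave the family 0.615% and 0.640% in Mat KO cells and 0.487% and 0.632% in WT, close to lineage-low cells (log2 ratio 0.06 ± 0.33, SD, n = 4, exact permutation p = 0.875). Their PA28 sum was lower than in lineage-low cells in 4 of 4 libraries, with a mean log2 ratio of -0.47 ± 0.26 (exact permutation p = 0.125). The 3 erythroid-like cells of WT replicate 2 had the highest class share, 1.06%, with immune genes at 28.6% of catalytic UMIs, and the T and NK-like cells, 1 in each Mat KO library, had immune genes at 95.9% and 68.9%. These last classes stood in too few cells and libraries for a test.

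Within the libraries the family's share tended to be low in cells with a high share of HSC marker UMIs. Spearman's rho between the shares was -0.14 and -0.31 in Mat KO cells and -0.52 and -0.43 in WT over all kept cells, and -0.14 and -0.19 in Mat KO cells and -0.48 and -0.47 in WT over lineage-low cells. With S phase genes rho was 0.29 and 0.31 in Mat KO cells and 0.45 and 0.43 in WT over all kept cells. In lineage-low cells it was -0.22 and 0.21 for Mat KO and 0.25 and 0.20 for WT, with the opposite sign in Mat KO replicate 1. These are descriptions in which both shares have the same total as their denominator, across 44 to 48 cells of a library, or across 26 to 41 lineage-low cells. Over all kept cells rho with depth itself was 0.25 and 0.28 in Mat KO cells and 0.38 and 0.39 in WT.

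Genes that work with the proteasome were read from lists outside the family, chosen with earlier results of these data known. Of 34 ubiquitin and proteasome partners 30 were in the tables and 29 were tested, 14 with estimates above and 15 below 0. By edgeR 0 of them were called, where 0.075% of all genes were. By DESeq2 1 was called, where 120 of all 10663 genes were. At an unadjusted p under 0.05 in edgeR's test 1 was lower and 1 higher, where 3.32% and 4.5% of all genes were. Zfand2a, a stress-induced protein that binds the proteasome, had 34.7 and 69.5 CPM in Mat KO cells against 6.28 and 5.22 CPM in WT cells. Its log2 fold change was 3.21 (SE 0.70), with an adjusted p of 0.189 by edgeR and 0.0026 by DESeq2. AI314180, which encodes a proteasome adaptor and scaffold (Ecm29), had 111 and 131 CPM in Mat KO cells against 81.0 and 87.0 CPM in WT cells. Among the genes on the lower side Rps27a, a ribosomal protein made as a fusion with ubiquitin, had 2459 and 2525 CPM in Mat KO cells against 3453 and 3290 CPM in WT cells (log2 fold change -0.40, SE 0.15, adjusted p = 0.572 in edgeR's test). Ngly1, which removes sugars from proteins bound for degradation, had 35.8 and 30.0 CPM in Mat KO cells against 75.4 and 56.6 CPM in WT cells.

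Of 14 antigen processing genes 9 had estimates above and 5 below 0. By edgeR 0 were called, where 0.075% of all genes were, and by DESeq2 0, where 120 of all 10663 genes were. At an unadjusted p under 0.05 in edgeR's test 1 was higher, where 4.5% of all genes were. Irf8, a transcription factor of myeloid and B cells, had 47.9 and 60.5 CPM in Mat KO cells against 17.9 and 27.0 CPM in WT cells (log2 fold change 1.30, SE 0.54, adjusted p = 0.597 in edgeR's test). Nlrc5, the activator of MHC class I genes, had 43.7 and 33.9 CPM in Mat KO cells against 18.2 and 18.4 CPM in WT cells. B2m, the light chain of MHC class I, had 3849 and 4023 CPM in Mat KO cells against 4616 and 4683 CPM in WT cells, and Erap1, a peptide trimmer, had 48.4 and 38.4 CPM in Mat KO cells against 86.1 and 41.5 CPM in WT cells.

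Of 24 interferon-induced genes outside the family 23 were tested, 18 with estimates above 0 and 5 below, with a median log2 fold change of 0.95. Of these, 2 rose in Mat KO, where 0.075% of all genes were called. At an unadjusted p under 0.05, 9 of the 23 were higher and 0 lower, where 4.5% and 3.32% of all genes were. In 14 of them Mat KO lay above WT without overlap, where 17.8% of all genes did. The list was chosen with earlier results of these data known, so these counts describe the list and are not a test of it. Cxcl10, a chemokine, had 124 and 213 CPM in Mat KO cells against 1.26 and 2.46 CPM in WT cells (log2 fold change 6.49, SE 0.57, adjusted p = 0.00174 in edgeR's test), and Ifit1 had 77.9 and 209 CPM in Mat KO cells against 6.60 and 7.07 CPM in WT cells (log2 fold change 4.42, SE 0.57, adjusted p = 0.0142). Both calls were lost in lineage-low cells, where 0 of the list were called, and when the leading cell of each gene was left out. Over all genes 4 were called in lineage-low cells and 0 with leading cells left out, against 8 in the main test. On the lower side, Igtp had 23.7 and 6.79 CPM in Mat KO cells against 25.4 and 22.1 CPM in WT cells, and Irf9 had 72.6 and 38.4 CPM in Mat KO cells against 74.1 and 65.2 CPM in WT cells. Of the 5 immune members of the family, Psmb8, Psmb9, Psmb10, Psme1 and Psme2, the estimates lay between -0.28 and 0.03. The difference between the list and these 5 genes was not tested.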

How the data were processed

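Single HSC were picked into lysis buffer and processed by a modified STRT-seq protocol, in which the oligo-dT primer brings in a barcode for the cell and a unique molecular identifier (UMI), per the labels' protocols. The authors deposited raw UMI counts per gene and barcode, and TopHat2 2.0.12, HTSeq and mm10 are named in the submitters' processing notes. The members and lists were chosen with earlier results of these data known.

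Cells with UMIs of 1000 genes or more were kept, 188 in all, and 95 spike-in and marker rows were left out. No doublet caller was run on singly picked cells. Counts were summed per library and tested with edgeR 4.0.16 (R 4.3.3; TMM, filterByExpr, quasi-likelihood, Benjamini-Hochberg adjustment over all genes at 0.05), with DESeq2 1.42.0 as an alternative. The scripts were tested on simulated data. Single values were compared by exact two-sided permutation over libraries, with Python 3.11.15 and scipy 1.17.1. Intervals and limits cover counting error only. The SE of an edgeR log2 fold change is its absolute value divided by the square root of the test's F statistic.

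Lineage-low cells lay below 1.0% of UMIs in granulocyte and monocyte markers, 0.2% in B-lymphoid, 0.4% in erythroid, 0.1% in T and NK and 1.0% in plasma cell markers. These limits were set after seeing the data, and 17 and 3 Mat KO cells and 7 and 6 WT cells lay between 0.5 and 2.0 times a limit. Thinning drew 8900 UMIs per cell, the 10th percentile. Shares, ratios and detection at equal depth were averaged over 20 draws, and the gene tests used the first draw alone. The libraries share 1 set of barcodes, and 44 barcode positions had a kept cell in every library. Named members were the catalytic and regulatory genes and, in each other class, the 2 of smallest p in each direction; outside lists were treated in the same way.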

Additional observations from a re-analysis of the deposited data

Results flagged for a closer look

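Each library listed 96 barcodes, of which 48 held cells. The barcodes without cells held 2 member UMIs in each Mat KO library, against 6 in WT replicate 1 and 8 in WT replicate 2. The 6 and 8 of the WT libraries passed the limit of 3 that a count of 0 allows. In Mat KO replicate 1, 4 wells under the gene minimum held 17 member UMIs, also above that limit. None of these UMIs entered the sums.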

How the results depend on the processing

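The 27 named members were fitted under 18 edgeR and DESeq2 alternatives. No value was called, and 427 of 485 kept the direction of the main estimate, with the exceptions in 19 genes. Psma2, Psma7, Psmc5, Psmc6, Psmd1, Psmd3, Psmd7 and Psme4 kept theirs throughout: Psma2 between -0.97 and -0.23, Psmd7 between -1.05 and -0.37 (lowest adjusted p 0.186, by DESeq2) and Psme4 between 0.26 and 0.80.

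In cells with Y-linked and no Xist UMIs the median log2 fold change of the members turned to 0.064, the share of members lower in Mat KO was 41.3%, and the summed level differed by 0.033. The median was -0.31 in lineage-low cells, -0.39 with their limits halved, -0.25 with them doubled and -0.26 at equal depth. Without Mat KO replicate 1 the median was -0.26 over the members and -0.11 over all genes. Without Mat KO replicate 2 these medians were -0.087 and -0.099, so the members did not lie below all genes, and 30 of 48 members were lower. They were -0.24 and 0.04 without WT replicate 1, and -0.15 and 0.04 without WT replicate 2. The log2 ratio of immune to constitutive catalytic sums ran from -0.41 without WT replicate 2 to 0.13 without WT replicate 1. The summed level differed by -0.31 in cells with Xist UMIs, -0.31 in lineage-low cells and -0.29 with doubled limits, and the median share per cell by -0.108 percentage points with halved limits.

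Of the ubiquitin and proteasome partners, Zfand2a alone was called, making 1 gene under DESeq2, with no filter on low counts and with the replicate block; leaving out 1 library gave 0 to 1. Interferon-induced calls numbered 4 under DESeq2, 5 with no filter, 5 with the replicate block and 1 with at least 2000 detected genes. They numbered 0 in cells with Xist UMIs, in cells with Y-linked and no Xist UMIs, without each gene's leading cell, and in lineage-low cells at all 3 settings of the limits. Over all genes DESeq2 called 120 of 10663, the fit with no filter 149 of 14246 and that with at least 2000 detected genes 5 of 10645. Where the list had 0 calls, few genes of any kind were called. They numbered 2 in cells with Xist UMIs, 1 with Y-linked and no Xist UMIs and 0 without the leading cell. In lineage-low cells they numbered 4, or 2 with limits halved and 1 with limits doubled. Same-numbered libraries did not deviate together (correlation -0.02), so the replicate block is an alternative only; it called 109 genes in place of 8 and 0 members. The causes were not tested. With 2 libraries per genotype no exact test between genotypes could fall below 0.333. Members near 30 CPM or below had standard errors above 0.5. So did some at higher mean levels, such as Psmf1 (42.9 CPM, SE 0.62) and Psmd5 (66.3 CPM, SE 0.52).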
